A study of Homo sapiens with 6 samples.

Results

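The 8 genes described here are the peroxisome proliferator-activated receptors PPARA, PPARD and PPARG, together with CPT1A, PDK4, ANGPTL4, ACADVL and FABP1, which act in fatty acid oxidation or are known PPAR targets. They were chosen by gene name, with earlier results of these data known. They are 8 of the 58735 genes in a table of RNA-seq counts from colorectal cancer cells. Of them, 7 were counted deeply enough to be tested. In cells with CNOT7 knockdown, PPARG rose 1.85-fold, ANGPTL4 rose 2.28-fold, CPT1A rose 1.25-fold and PPARA rose 1.23-fold. PPARD, PDK4 and ACADVL did not pass the test, and FABP1 had no count in any library.

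PPARs are nuclear receptors that bind fatty acids and their derivatives. Each pairs with a retinoid X receptor (RXR) on DNA elements built from repeats of the core AGGTCA, and the pair recruits coactivators that raise transcription of genes for fatty acid uptake, storage and oxidation. PPARA is best known from liver, PPARG from fat tissue and colon epithelium, and PPARD from many tissues including the intestine. Long-chain fatty acids enter mitochondria through carnitine palmitoyltransferase 1, which CPT1A encodes, and are then shortened by acyl-CoA dehydrogenases such as that encoded by ACADVL. PDK4 phosphorylates and inactivates pyruvate dehydrogenase and so spares glucose when fat is burned.

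The data were 6 libraries of unirradiated cells, 3 from controls and 3 from a stable line in which a short hairpin RNA (shRNA) from a lentiviral vector lowered CNOT7, a catalytic subunit of the CCR4-NOT complex that shortens poly(A) tails. The labels name the line SW480, an established human colorectal cancer line, whereas the study's text names HCT116, another such line, for this experiment. Whether the stable cells were a pool or a clone, and which shRNA they carried, was not given in the sources used here. Nothing stated that the libraries came from separate cultures, so the p-values measure the spread between these libraries, which may be technical.

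The libraries held 23788451 to 25982493 counts in controls and 27523812 to 29104872 in knockdown cells. The unit of level is CPM, a gene's count relative to the library total after normalisation by the trimmed mean of M-values (TMM), with mean ± SD over 3 libraries. Changes are log2 fold changes of knockdown over control with their standard error (SE). Adjusted p-values were computed by edgeR (quasi-likelihood F-test) and corrected by the Benjamini-Hochberg procedure over 17574 tested genes, and a call means an adjusted p under 0.05. CNOT7 fell from 178.7 ± 11.3 to 43.1 ± 4.31 CPM, which left 24.1% of the control level (log2 change -2.05, SE 0.0734, adjusted p = 2.64e-12 by edgeR). Counts were found in all libraries for 9 of 9 colorectal epithelial markers, although CDH17 and LGALS4 stayed under 1 CPM. Their summed level was 5555 to 5973 CPM in controls and 5134 to 5684 CPM in knockdown cells, mostly from KRT8 and KRT18. Single markers went both ways. CDH1 (log2 change 0.51) and VIL1 (0.72) were called higher, and KRT19 (-0.18) and KRT8 (-0.15) lower. Summed adipocyte markers reached 12.04 to 15.2 CPM and 12.1 to 14.9 CPM, nearly all from LIPE, with ADIPOQ and LEP at 0. Hepatocyte markers reached 313 to 320 CPM and 258 to 275 CPM, nearly all from SERPINA1, with TTR at 0. Fibroblast markers reached 9.07 to 10.8 CPM and 10.2 to 11.95 CPM, mostly from COL1A1, with COL3A1 and DCN at 0. Leukocyte markers reached 2.32 to 4.07 CPM and 4.17 to 4.43 CPM.

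Among all tested genes, 25.2% were called in either direction, with 13.3% higher and 11.9% lower in knockdown cells. Of the 7 tested members, 4 were called higher and 0 lower, or 57.1%. Because the members were chosen with earlier results of these data known, this share is a description and not a test. No member was lower at an unadjusted p under 0.05 in edgeR or by DESeq2, with a count of 0 in each. The same 4 members had knockdown values above every control value, where 20.6% of all tested genes lay wholly higher, 18.2% wholly lower and 38.8% either way. The median log2 change was 0.30 over the 7 tested members and 0.0039 over all tested genes. The 7 passed a filter on low counts and the eighth, FABP1, did not. In bulk RNA, fewer cells with a transcript and less of it per cell cannot be told apart.

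**Figure D1:**
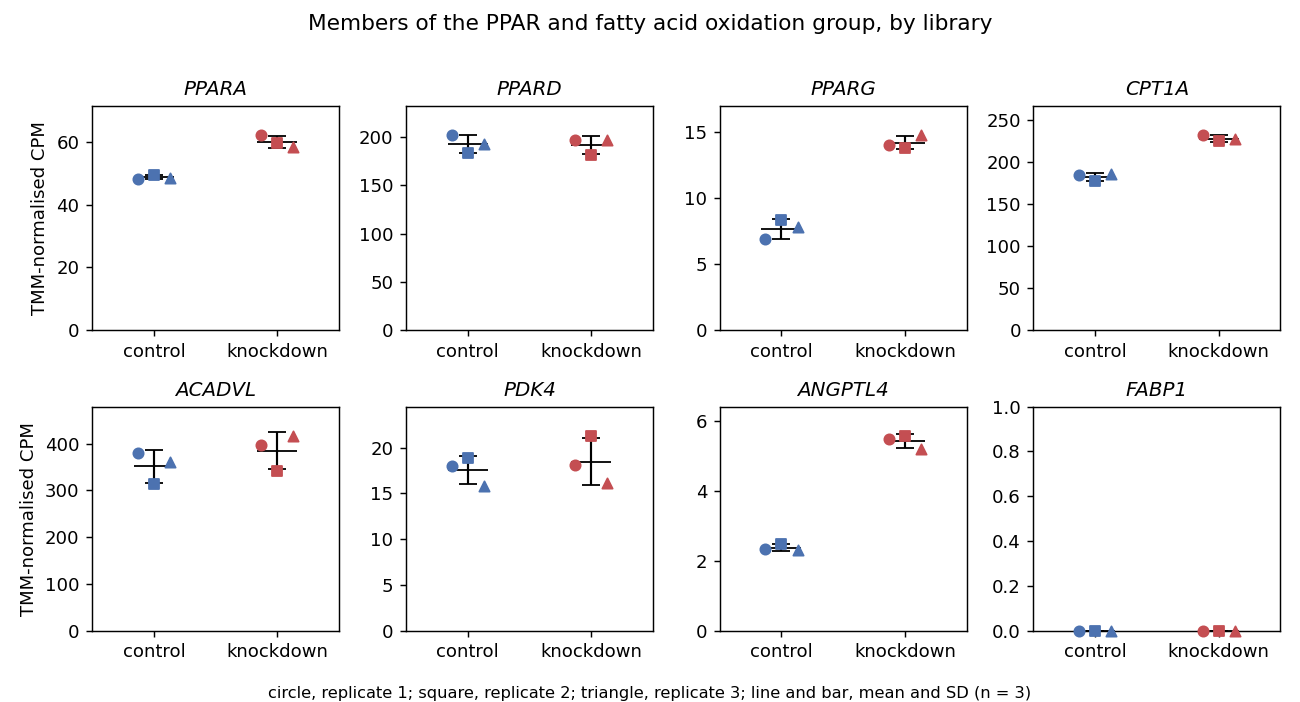
Level of each of the 8 genes in CPM (y axes, each from 0) in the 3 control and 3 knockdown libraries, with points for libraries and a line and bar for mean and SD. PPARA, PPARG, CPT1A and ANGPTL4 show no overlap between groups, PPARD, PDK4 and ACADVL overlap, and FABP1 lies at 0 throughout.

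PPARG showed the largest rise of the 3 receptors. The gene lies on chromosome 3 at 12287368 to 12434356, plus strand (GRCh38). Its level was 6.85, 8.30 and 7.82 CPM in control libraries 1 to 3 and 14.0, 13.8 and 14.7 CPM in knockdown libraries 1 to 3. All knockdown libraries stood well above the highest control, and the spread within each group was small beside the gap. The means were 7.66 ± 0.738 and 14.2 ± 0.504 CPM (log2 change 0.89, SE 0.106, edgeR adjusted p = 8.76e-06). This log2 change ranked above those of 95.7% of tested genes.

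Promoter windows of RefSeq genes on GRCh38.p14, from 250 bases before to 50 bases after each annotated start, covered 8 of 8 members in 15 windows. They are of interest here because PPAR-RXR pairs recognise the core AGGTCA. That core, on either strand, was present in 13.8% of all 35116 such windows. It was found in 4 of the 15 member windows, of which 3 belong to PPARG and 1 to FABP1, so a rising gene and an undetected gene shared it. The starts of a pair of the PPARG windows lie 10 bases apart, and both hold the same AGGTCA. The full direct repeat AGGTCANAGGTCA, with 1 base between the cores, was found in 8 windows of all genes, or 0.0228%, and in 0 member windows. The stretches of both genes that lie before the start and outside annotated exons are shown 5′ to 3′ on the gene's strand. Capitals mark the core or its reverse complement TGACCT. They are chr3:12287118-12287367 on the plus strand and chr2:88128117-88128312 on the minus strand. The cores begin 217 and 184 bases before the PPARG start and 68 bases before the FABP1 start. A further AGGTCA of the FABP1 window lies after the start and is not shown. A match describes these letters and is no evidence of binding. Only exact matches inside these short windows were sought, so a lack of matches is no evidence against binding.
PPARG: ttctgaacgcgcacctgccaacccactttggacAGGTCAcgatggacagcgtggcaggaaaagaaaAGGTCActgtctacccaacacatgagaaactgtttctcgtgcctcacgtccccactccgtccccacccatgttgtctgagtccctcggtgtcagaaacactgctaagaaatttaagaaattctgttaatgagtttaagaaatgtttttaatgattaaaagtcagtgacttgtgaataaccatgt
FABP1: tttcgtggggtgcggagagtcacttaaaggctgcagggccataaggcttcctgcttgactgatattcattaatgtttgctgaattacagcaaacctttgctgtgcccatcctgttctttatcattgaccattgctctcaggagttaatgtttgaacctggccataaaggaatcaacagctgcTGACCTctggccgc

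PPARA, on chromosome 22 at 46150521 to 46243756 on the plus strand, encodes the receptor that drives fatty acid oxidation genes in liver. It was measured at 48.2, 49.6 and 48.6 CPM in the controls and at 62.2, 59.8 and 58.3 CPM in knockdown cells. The groups did not overlap, and the difference was small but exceeded the replicate spread. The means were 48.8 ± 0.735 and 60.1 ± 1.95 CPM (log2 change 0.30, SE 0.0622, edgeR adjusted p = 0.0018).

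PPARD, on chromosome 6 at 35342558 to 35428191 on the plus strand, is the receptor that senses fatty acids in many cell types and was the most abundant of the 3 here. Control libraries held 202.1, 183.3 and 192.5 CPM and knockdown libraries 197.1, 181.6 and 196.9 CPM. The groups overlapped, and library 2 was the lowest in both. The log2 change was -0.0056 (SE 0.0567, edgeR adjusted p = 0.957), with a 95% interval of -0.13 to 0.11. The sign of this value turned positive under another normalisation, cyclic loess, and when control replicate 1 or knockdown replicate 2 was left out.

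Levels of different genes were compared per kilobase of exon, using the gene length in the table, which joins the exons of all annotated transcripts. On this scale PPARD made up 88.9% ± 0.873 of the summed level of the 3 receptors in controls and 84.9% ± 0.462 in knockdown cells. PPARG went from 3.49% ± 0.467 to 6.17% ± 0.195, and PPARA from 7.61% ± 0.411 to 8.97% ± 0.437. PPARD thus remained the main receptor transcript in all 6 libraries. The PPARD level per PPARG level was 30.02, 22.5 and 25.04 in controls and 14.3, 13.4 and 13.6 in knockdown cells. The PPARD level per PPARA level was 12.4, 10.96 and 11.7 in controls and 9.41, 9.0 and 10.02 in knockdown cells. The PPARA level per PPARG level was 2.41, 2.05 and 2.13 in controls and 1.52, 1.49 and 1.36 in knockdown cells. All 3 ratios were lower in every knockdown library than in every control. The exact two-sided permutation p was 0.1 for each, the smallest that 3 against 3 libraries allow. The ratios follow from the receptor levels given above and are not separate results.

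**Figure D2:**
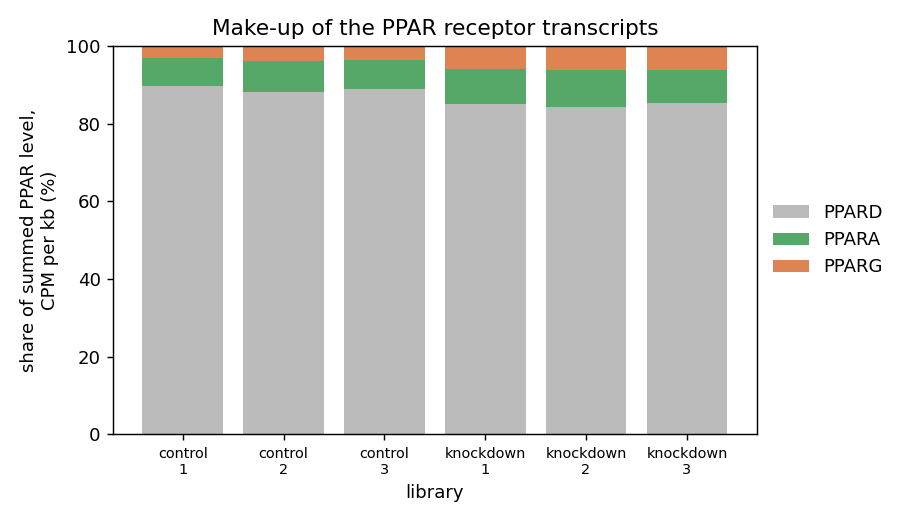
Share of PPARA, PPARD and PPARG (stacked bars, % of their summed CPM per kilobase) in each of the 6 libraries on the x axis. PPARD forms 88.0% to 89.8% of the total in controls and 84.3% to 85.2% in knockdown libraries, and the PPARG share rises from 2.99% to 3.92% in controls to 5.94% to 6.29% in knockdown libraries.

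The retinoid X receptors that pair with PPARs did not pass the test. RXRA was at 94.1 ± 4.31 and 89.2 ± 5.13 CPM (log2 change -0.08, SE 0.0619, edgeR adjusted p = 0.403). RXRB was at 26.3 ± 1.91 and 27.4 ± 1.96 CPM (log2 change 0.06, SE 0.0826, edgeR adjusted p = 0.642), with a sign that changed when knockdown replicate 3 was left out. RXRG had 0 counts in all libraries. Among 19 tested partners and coregulators of 20 listed, 1 rose and 5 fell, and the list median was a log2 change of -0.09. The acetyltransferase coactivators CREBBP (log2 change -0.46) and EP300 (-0.30) fell, as did PRKAA1 (-0.44), a catalytic subunit of the energy sensor AMPK. NCOA3, a p160 coactivator, rose (0.22), and that call was lost without knockdown replicate 1 (0.20, edgeR adjusted p = 0.0591). Of its relatives, NCOA2 fell (-0.25, edgeR adjusted p = 0.0126) and NCOA1 was not called (-0.04, 0.685). The higher count of the list was 2 without control replicate 2. PPARGC1A, the coactivator of oxidative genes, was at 0.414 ± 0.266 and 0.776 ± 0.189 CPM (log2 change 0.92, edgeR adjusted p = 0.14).

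ANGPTL4 had the largest fold change of the 8 genes. It encodes a secreted inhibitor of lipoprotein lipase and is induced by fatty acids through PPARs. The gene lies on chromosome 19 at 8363289 to 8374373, plus strand. The counts were 60, 58 and 58 in controls and 155, 154 and 155 in knockdown cells. These correspond to 2.33, 2.49 and 2.31 CPM against 5.50, 5.58 and 5.20 CPM. The replicates lay close together in both groups and the groups were far apart. The means were 2.38 ± 0.0982 and 5.43 ± 0.198 CPM (log2 change 1.19, SE 0.149, edgeR adjusted p = 1.62e-05). It ranked above 97.9% of tested genes. An antisense gene, RAB11B-AS1, covers 0.0403% of its exonic bases, and whether counting used strand was not given in the sources used here.

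CPT1A, the liver-type carnitine palmitoyltransferase that limits the entry of long-chain fatty acids into mitochondria, rose by a smaller factor at a much higher level. It lies on chromosome 11 at 68754620 to 68844410, minus strand. Control libraries held 184.1, 176.8 and 185.7 CPM and knockdown libraries 231.6, 224.4 and 226.8 CPM. The groups were separated by a gap wider than the range within either. The means were 182.2 ± 4.74 and 227.6 ± 3.63 CPM (log2 change 0.32, SE 0.051, edgeR adjusted p = 1.73e-04).

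PDK4, on chromosome 7 at 95583499 to 95596491 on the minus strand, is a PPAR target that also responds to glucocorticoids and FOXO factors. Its level was 18.0, 18.8 and 15.8 CPM in controls and 18.1, 21.3 and 16.1 CPM in knockdown cells. The groups overlapped, with knockdown library 2 above the rest. The log2 change was 0.07 (SE 0.106, edgeR adjusted p = 0.663) with a 95% interval of -0.15 to 0.30, and it was -0.04 when knockdown replicate 2 was left out.

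ACADVL encodes very-long-chain acyl-CoA dehydrogenase, which takes the first step of mitochondrial oxidation of long-chain fatty acids. It lies on chromosome 17 at 7217125 to 7225273, plus strand, and DLG4 on the opposite strand covers 1.75% of its exonic bases. Control libraries held 380.2, 312.6 and 360.3 CPM and knockdown libraries 396.4, 340.5 and 416.4 CPM. Library 2 was the lowest of each group, and the ranges overlapped. The means were 351.0 ± 34.7 and 384.4 ± 39.3 CPM (log2 change 0.13, SE 0.0747, edgeR adjusted p = 0.222), with a 95% interval of -0.03 to 0.29. Without knockdown replicate 2 the log2 change was 0.21 and passed the test (edgeR adjusted p = 0.0184), whereas it was 0.052 (0.641) without control replicate 2 and 0.065 (0.608) without knockdown replicate 3. Without replicate 2 of both groups, a choice made after seeing the data, it was 0.13 (edgeR adjusted p = 0.0235).

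FABP1, the liver and intestinal fatty acid-binding protein, is a textbook PPARA target on chromosome 2 at 88122982 to 88128116, minus strand. It had 0 counts in each of the 6 libraries. A count of 0 allows a level of up to 0.101 to 0.129 CPM in a single library, taking 3 counts as the limit and covering counting error only. No fold change can be given for it.

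**Figure D3:**
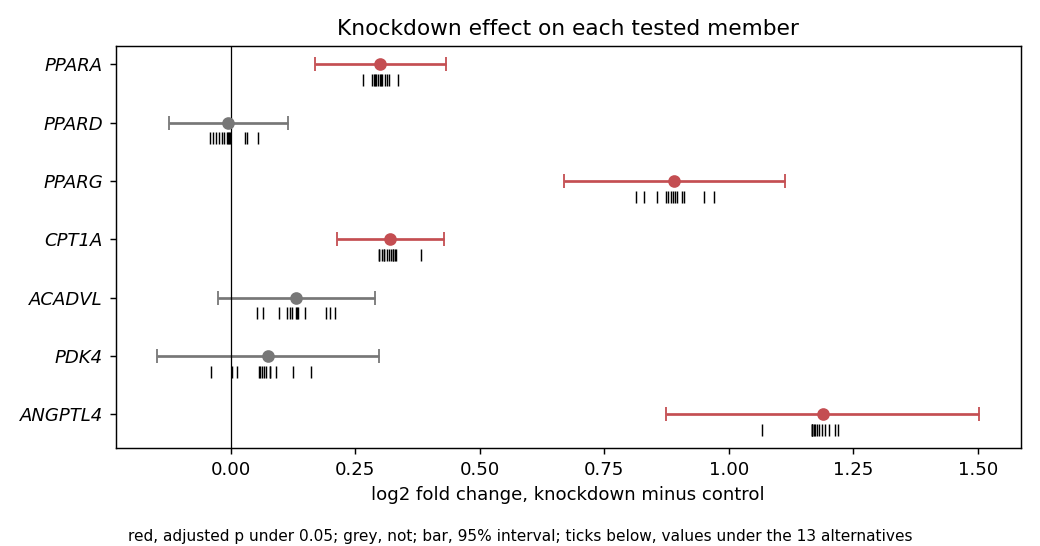
Log2 fold change of knockdown over control (x axis) for the 7 tested members, with 95% intervals as bars and the values under 13 alternative analyses as ticks. Intervals of ANGPTL4, PPARG, CPT1A and PPARA lie above 0, and those of ACADVL, PDK4 and PPARD include 0.

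By level per kilobase in controls, the order was ACADVL (72.2), PPARD (43.2), CPT1A (27.8), PDK4 (3.88), PPARA (3.69), PPARG (1.69), ANGPTL4 (0.959) and FABP1 at 0, all in CPM per kilobase. The ranges of PDK4 and PPARA overlapped, and those of the other detected neighbours did not. In knockdown cells the means were 4.55 CPM per kilobase for PPARA and 4.09 for PDK4, but the PDK4 range (3.56 to 4.71) enclosed that of PPARA (4.41 to 4.70), so their order was not resolved in either group. The order of the other genes was the same.

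Likeness of profile was measured over the 6 libraries as the root mean square difference of log2 CPM after subtracting each gene's control mean, among 145 candidate genes of the lists. PPARA and CPT1A were each other's nearest genes, at 0.0416 log2 units. FKBP5 was next for PPARA (0.0505) and ACSS2 for CPT1A (0.0424). Lipoprotein lipase, LPL, was nearest to PPARG (0.136 log2 units), followed by ANGPTL4 (0.189). ANGPTL4 lay nearest to ACSL6 (0.0563). Genes with like fold changes score as near on this measure.

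Of 185 further genes in 12 lists around these members, 139 were tested, 37 were called higher and 17 lower. The share called was 38.8%, against 25.2% of all tested genes, and the median log2 change was 0.08. The lists were also chosen with earlier results of these data known, so their shares are descriptions and not tests. Some genes stand in more than 1 list. By list, the share called was 0% for fatty acid-binding proteins, 18.2% for mitochondrial β-oxidation, 25% for the carnitine shuttle, 31.6% for partners and coregulators, and 33.3% for intestinal fatty acid handling. It was 38.5% for the pyruvate dehydrogenase switch, 38.9% for the peroxisomal list, 47.4% for PPAR targets outside oxidation, 50% for the lipase list and for other regulators, 60% for uptake and activation, and 75% for ketone bodies. The carnitine shuttle stood at the share over all tested genes.

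**Figure D4:**
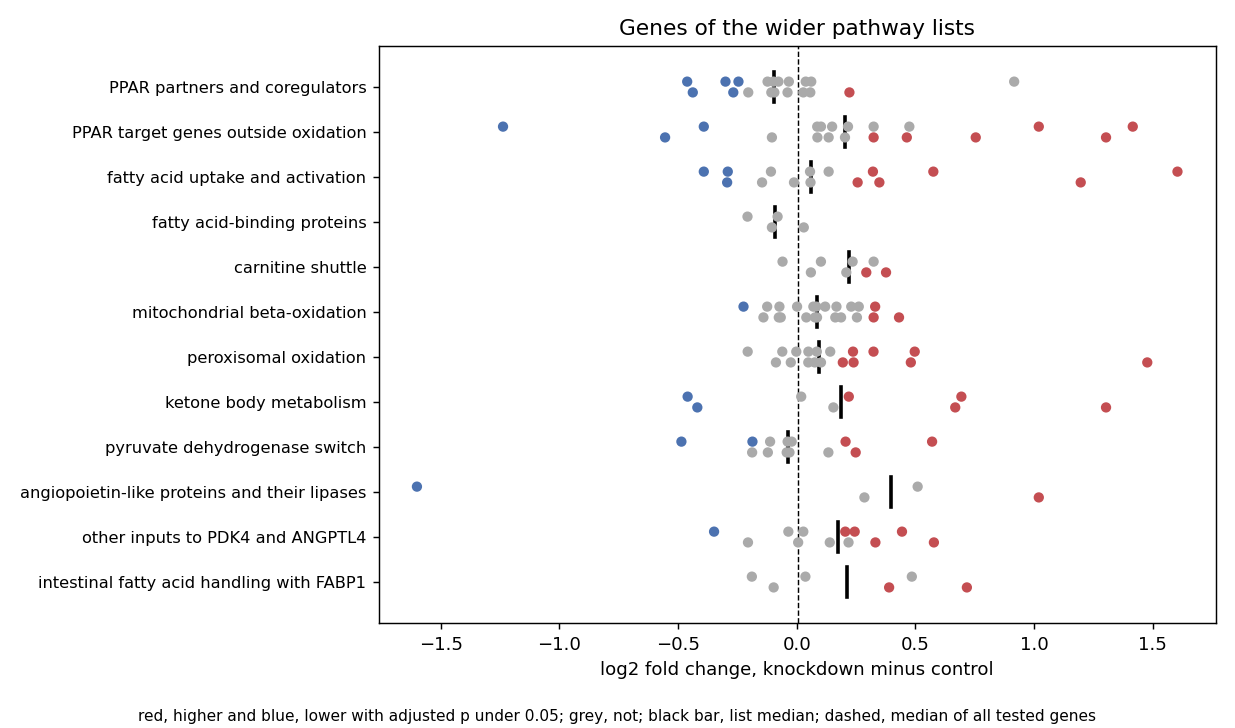
Log2 fold change (x axis) of each tested gene in the 12 lists (y axis), in red where called higher, blue where called lower and grey otherwise, with black bars for list medians and a dashed line for all tested genes. Medians run from -0.09 to 0.40, and every list except the fatty acid-binding proteins holds called genes.

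The list of PPAR targets outside oxidation, all known from other tissues, had 6 genes higher and 3 lower of 19 tested, with 17 of its 36 genes counted too low to test and a median log2 change of 0.20. PLIN2, which coats lipid droplets, rose from 77.7 ± 1.58 to 207 ± 14.6 CPM (log2 change 1.42, SE 0.0606, edgeR adjusted p = 2.93e-11). LPL rose from 1.93 ± 0.412 to 3.91 ± 0.177 CPM (log2 change 1.02). Both are genes of lipid storage or use, and other listed targets fell. UCP2, a mitochondrial carrier, fell from 33.8 ± 0.381 to 23.0 ± 0.741 CPM (log2 change -0.55), and the fatty acid transporter SLC27A2 fell as well (-0.39). The call for UCP3 (-1.24) rested on about 1 CPM or less with overlapping groups, and was lost when any of 4 single libraries was left out, with -0.95 (edgeR adjusted p = 0.19) without control replicate 3 and -0.93 (0.152) without knockdown replicate 1.

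Around CPT1A, the list of the carnitine shuttle had 2 of 8 tested genes higher and 0 lower, with a median log2 change of 0.22. The share called was 25%, against 25.2% of all tested genes. The lower count was also 0 at an unadjusted p under 0.05 in edgeR and by DESeq2. The higher count was 1 without control replicate 3 or knockdown replicate 2, and 3 without knockdown replicate 3. CRAT, the acetyl-group transferase, rose from 70.4 ± 2.22 to 91.4 ± 4.52 CPM (log2 change 0.38). CROT, its peroxisomal relative, rose by 0.29 on the log2 scale, a call lost without control replicate 1 (0.22, edgeR adjusted p = 0.104), control replicate 3 (0.30, 0.0545) or knockdown replicate 2 (0.23, 0.0594). The muscle-type paralog CPT1B had at most 7 counts in a library and was not tested. CPT1C, the brain-type paralog, was at 1.60 ± 0.161 and 1.89 ± 0.189 CPM (log2 change 0.24, edgeR adjusted p = 0.467).

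The list of uptake and activation holds fatty acid transporters and acyl-CoA synthetases, some of which use acetate or malonate. It split in both directions, with 6 higher and 3 lower of 15 tested and a median of 0.06. ACSM3, a medium-chain acyl-CoA synthetase, rose from 1.999 ± 0.173 to 6.09 ± 0.593 CPM (log2 change 1.60), and ACSL6, a long-chain one, from 6.93 ± 0.285 to 15.9 ± 1.18 CPM (1.197). The transporter SLC27A1 rose (0.58), while ACSL3 fell (-0.29). SLC27A4 also fell (-0.29), although its call was lost without control replicate 1 (-0.26, edgeR adjusted p = 0.056), control replicate 3 (-0.29, 0.054) or knockdown replicate 1 (-0.30, 0.0534).

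Among the listed fatty acid-binding proteins, 0 of 4 tested genes were called by edgeR or DESeq2, and 1 (DBI, lower) had an unadjusted p under 0.05. Of these 4, only FABP3 and FABP5 belong to the same protein family as FABP1. The lower count was 1 without control replicate 2. FABP5 was at 38.3 ± 3.33 and 36.2 ± 1.54 CPM (log2 change -0.08, edgeR adjusted p = 0.49), and FABP3 was at 8.92 ± 0.364 and 8.30 ± 0.534 CPM (-0.10, 0.533). FABP2, FABP4 and FABP6 had at most 5 counts in a library. In the list of intestinal fatty acid handling, 2 of 6 tested genes rose and 0 fell, with a median log2 change of 0.21. None fell by DESeq2 or at an unadjusted p under 0.05 in edgeR, with 0 genes in each. The 2 that rose were VIL1, an actin-bundling protein of the brush border (0.72), and DGAT2, which makes triglyceride (0.39). HNF4A, a factor that drives FABP1 in liver and gut, was detected at 40.5 ± 1.73 and 37.8 ± 1.13 CPM (-0.10, edgeR adjusted p = 0.332).

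Around ACADVL, 22 genes of the mitochondrial β-oxidation list were tested, of which 3 rose and 1 fell. This is 18.2% against 25.2% of all tested genes, with a median log2 change of 0.08. The list also holds enzymes of propionyl-CoA and branched-chain amino acid breakdown, which were not called. The share is thus not that of fatty acid β-oxidation genes alone. Knockdown values lay wholly above control values for 10 of the 22, where 20.6% of all tested genes did. With cyclic loess 5 were called higher and 0 lower, and without control replicate 2 the lower count was 2. ETFB, a subunit of the flavoprotein that takes electrons from acyl-CoA dehydrogenases, rose from 51.4 ± 2.44 to 69.2 ± 7.81 CPM (log2 change 0.43). The thiolase ACAA2 rose by 0.32. ETFDH, which passes those electrons to ubiquinone, was called higher (0.33, edgeR adjusted p = 0.041), but lost the call when any of 5 single libraries was left out, with 0.30 (0.147) without control replicate 3. ACAD9 was called lower (-0.22), and the call was lost without control replicate 1 (-0.18, edgeR adjusted p = 0.135), knockdown replicate 1 (-0.25, 0.0613) or knockdown replicate 2 (-0.17, 0.0795). The medium-chain dehydrogenase ACADM was at 44.6 ± 3.39 and 42.4 ± 3.15 CPM (-0.07, edgeR adjusted p = 0.537), and the long-chain ACADL had at most 6 counts.

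The peroxisomal list had 7 higher and 0 lower of 18 tested, with a median log2 change of 0.09, and the count fell to 4 without control replicate 3 or without knockdown replicate 1. DESeq2 and an unadjusted p under 0.05 in edgeR also gave 0 lower genes. ACOX2, which oxidises branched chains and bile acid precursors, rose from 1.41 ± 0.0841 to 3.92 ± 0.505 CPM (log2 change 1.48). Catalase, CAT, which breaks down hydrogen peroxide, rose from 48.1 ± 2.39 to 67.9 ± 3.81 CPM (0.50), and PEX11A, a protein of peroxisome division, rose by 0.48.

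PDK4 has 3 paralogs that phosphorylate the same enzyme. PDK3 rose from 31.995 ± 1.37 to 47.5 ± 2.06 CPM (log2 change 0.57, SE 0.0698, edgeR adjusted p = 1.21e-05). PDK1 was called higher (37.9 ± 2.80 to 45.0 ± 3.29 CPM, 0.25), but not when any of 4 single libraries was left out, with 0.19 (edgeR adjusted p = 0.13) without control replicate 1. PDK2 was at 21.4 ± 1.14 and 19.6 ± 0.655 CPM (-0.12, edgeR adjusted p = 0.308). Over the 13 genes of the pyruvate dehydrogenase switch, 3 rose and 2 fell, with a median log2 change of -0.04. The phosphatase PDP1, which reverses the kinases, fell from 276 ± 12.99 to 197 ± 11.7 CPM (-0.49). The calls for PDP2 (0.21), another phosphatase, and DLAT (-0.19), a subunit of the complex, were weaker. PDP2 lost its call whichever library was left out, with 0.18 (edgeR adjusted p = 0.128) without control replicate 2. DLAT lost it without control replicate 2 (-0.17, edgeR adjusted p = 0.0641), control replicate 3 (-0.17, 0.117) or knockdown replicate 1 (-0.16, 0.116). With any single library left out, 1 or 2 genes of this list were called higher and 1 or 2 lower.

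A list of other regulators of PDK4 and ANGPTL4, which also holds readouts of such regulators, had 5 higher and 1 lower of 12 tested, with a median log2 change of 0.17. TSC22D3, a glucocorticoid-induced gene, rose from 12.7 ± 0.277 to 19.0 ± 1.04 CPM (log2 change 0.58), and FOXO4 rose by 0.44. FOXO1 rose by 0.33, although its call was lost without control replicate 3 (0.29, edgeR adjusted p = 0.0577). FKBP5, another glucocorticoid-induced gene, rose by 0.24. The hypoxia-inducible factor subunits moved in opposite directions, since HIF1A fell from 222 ± 19.8 to 174 ± 16.8 CPM (-0.35) and EPAS1 rose from 631 ± 9.76 to 728 ± 19.8 CPM (0.204, edgeR adjusted p = 0.0038).

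Beside ANGPTL4, 4 of 12 angiopoietin-like proteins and their lipases could be tested, with 1 higher, 1 lower and a median log2 change of 0.40. The higher count was 2 without knockdown replicate 2. The gene called higher was LPL, the lipase that ANGPTL4 inhibits, and the gene called lower was endothelial lipase, LIPG, which fell from 8.999 ± 0.77 to 2.96 ± 0.249 CPM (log2 change -1.60, SE 0.136, edgeR adjusted p = 1.83e-07). In the ketone body list, 4 of 8 tested genes rose and 2 fell, with a median of 0.19, and the count that rose was 2 without control replicate 3. BDH2 rose (0.69), while BDH1 (-0.42) and OXCT1 (-0.46), which serve the interconversion and use of ketone bodies in mitochondria, fell. OXCT2 was called higher (0.67) at 1.19 ± 0.0618 and 1.89 ± 0.318 CPM, but lost the call when any of 5 single libraries was left out, with 0.58 (edgeR adjusted p = 0.159) without knockdown replicate 1.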

How the data were processed

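Total RNA was extracted with TRIzol from 3 control and 3 knockdown samples and libraries were made with a NEBNext Ultra RNA kit. The authors deposited raw counts per gene with no normalization. The submitters' processing notes name CASAVA 1.8, fastp, HISAT2 2.0.5, featureCounts 1.5.0-p3, DESeq2 1.20.0 and GRCh38. Groups were taken from the labels, and the labels' library numbers were used as replicate numbers. The number of unused sample columns was 0.

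The count table was analysed with edgeR 4.0.16 (R 4.3.3). filterByExpr left 17574 of 58735 genes, which were TMM-normalised and fitted with glmQLFit and glmQLFTest without a block, adjusted by Benjamini-Hochberg at 0.05. Depth was 23788451 to 29104872 counts per library, and the SE gives the precision this allows. The SE is that of the log2 fold change. Alternatives were DESeq2 1.42.0, RLE factors, no filter, a filter of 10 or more counts in each library, and a block on replicate number. Others were cyclic loess offsets (limma 3.58.1), leaving out each library and, after seeing the data, leaving out both replicate 2 libraries. A log2 fold change limit of 1 in size was applied only to the counts over all tested genes. The calculations were tested on simulated data. Profiles were compared on log2(CPM + 0.25). Figures and sequence matches were made in Python 3.11.15, with promoters from RefSeq.

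The 63 named genes were the 8 members, CNOT7, the 3 largest rises and falls among called genes of each list, paralogs of members, and the 2 nearest profiles of each called member. Values of 1 of these genes are not reported here. A few other genes (PPARGC1A, RXRG, HNF4A, DBI, EPAS1, NCOA1, NCOA2 and markers) were named after their values were seen. The members and lists were chosen with earlier results of these data known. Within groups, libraries differed by more than sampling noise, so none is a copy of another.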

Additional observations from a re-analysis of the deposited data

How the results depend on the processing

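PPARA, PPARG, CPT1A and ANGPTL4 kept their direction and call in all 13 alternative fits, which do not include the limit on log2 fold change. Their log2 changes were 0.26 to 0.34, 0.81 to 0.97, 0.30 to 0.38 and 1.07 to 1.22. The highest edgeR adjusted p was 0.0241, 1.77e-04, 0.00487 and 2.61e-04, in the same order. PPARD turned to 0.054 with cyclic loess and ranged from -0.042 to 0.032 with a library left out, PDK4 from -0.040 to 0.16, ACADVL from 0.052 to 0.21 and RXRB from -0.0049 to 0.12. Without both replicate 2 libraries, added after seeing the data, ACADVL was 0.13 and called. The numbers were not treated as pairs, since same-numbered libraries correlated at 0.145, 0.515 and 0.0531 in their deviations, not all over 0.1, and not every library correlated best with its own number. With the replicate block, ACADVL was called (0.13, edgeR adjusted p = 0.00293), which made 5 members higher, and 3306 of all tested genes were lower, against 2095. The block also gave 5 genes of the mitochondrial β-oxidation list higher and 2 lower. The lower count over all tested genes was 1367 to 2219 with a library left out, the least without control replicate 3. A minimum absolute log2 change of 1 left 492 of all tested genes higher and 146 lower. Among the called members, only ANGPTL4 (1.19 in the main fit) reached that size. Of 42 further named genes that were called, 11 lost their call in at least 1 alternative, among them ETFDH, OXCT2, PDP2 and UCP3 under DESeq2. Of the counts by list, 279 were within 1.5 times the main count and 33 were not. Low counts limit ANGPTL4, PPARG and most genes under 1 CPM. The causes of these changes were not tested.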
